A study of Mus musculus with 4 samples.

Results

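A set of 10 genes that build or trim the extracellular matrix was followed through single cells of the reperfused mouse jejunum: the proteases Adamts1, Adamts4, Adamts5 and Adamts9, the protease inhibitors Timp1, Timp2 and Timp3, and the matricellular genes Thbs1, Sparc and Sparcl1. They were taken by gene symbol and are 10 of the 32286 features counted. Each of the 10 had at least 1 molecule in every mouse. The members were selected on measured values of these same libraries, since the list was drawn up with earlier results in view; which values were used is not recorded. The genotype contrast in blood endothelial cells (BECs), the cells the study centred on, is therefore treated as used and is given as values, not as a test of the list.

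ADAMTS proteases are secreted metalloproteinases with thrombospondin repeats, and several of them cut the large proteoglycans versican and aggrecan in the matrix. TIMPs are small secreted proteins that occupy the active site of metalloproteinases, and TIMP3, which binds to the matrix, is the TIMP best known for holding ADAMTS proteases as well. Thrombospondin 1, SPARC and the SPARC-like protein encoded by Sparcl1 are matricellular proteins, which are deposited in the matrix but act on cells and growth factors more than they bear load. Thrombospondin 1 is known as an inhibitor of vessel growth, through the receptors CD36 and CD47.

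Single cells came from the distal jejunum of 4 adult male mice, 18.5 h after small intestinal ischemia and reperfusion (I/R), a procedure that shuts off and then reopens the blood supply of the gut. The 2 Control mice were Foxc1fl/fl;Foxc2fl/fl, and the 2 EC-Foxc-DKO mice were Cdh5-CreERT2;Foxc1fl/fl;Foxc2fl/fl, so that all 4 carried floxed Foxc1 and Foxc2 and all 4 had I/R. Per the study's methods, adult mice were 7 to 8 weeks old when they received tamoxifen, which activates CreERT2; Cdh5 drives this Cre in both blood and lymphatic endothelial cells, and the model is not particular to either. Each mouse is 1 library and 1 replicate, so with 2 mice against 2 an exact permutation test of a single gene could not reach the 0.05 threshold.

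The 4 libraries held 3623 to 7347 barcodes and 15557181 to 72046346 unique molecular identifiers (UMIs, which count each captured RNA once). After barcodes with over 10% mitochondrial UMIs were removed, 5615 of 22679 barcodes remained, between 348 (Control mouse 2) and 2742 (EC-Foxc-DKO mouse 1) per mouse. In 2 libraries at once, 51 barcodes occurred, of which 24 kept cells carried one. Clustering without the 10 genes gave 171 BECs, 18 lymphatic endothelial cells (LECs), 73 stromal cells, 46 mural cells (smooth muscle and pericytes) and 92 glial cells, and each of these 5 classes detected all markers of its own list. The classes were thin in single mice: EC-Foxc-DKO mouse 2 had 1 stromal cell, 2 mural cells and no LEC, Control mouse 1 had 2 stromal cells, so that stromal and mural values of these mice rest on few UMIs. Foxc1 had 1 and 5 UMIs in the BECs of Control mice 1 and 2 and 1 and 0 in those of EC-Foxc-DKO mice 1 and 2, and Foxc2 had none in any of the 5 classes. Cre had 3 and 2 UMIs in the BECs of the EC-Foxc-DKO mice and 0 in the other 4 classes and in both Control mice. Whether the counted 3′ end lies inside the deleted part of either gene is not given in the sources used here.

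In the GENCODE annotation of GRCm38 (mm10), Adamts1 (chr16:85793827-85803113) and Adamts5 (chr16:85856173-85901828) lie next to each other on the minus strand of chromosome 16, whereas Adamts4 (chr1:171250421-171260637) and Adamts9 (chr6:92772699-92943492) stand apart. Timp1 (chrX:20870166-20874735) lies inside Syn1 and Timp3 (chr10:86300372-86349506) inside Syn3, each on the opposite strand of its host. Timp2 is at chr11:118301069-118355740, Sparc at chr11:55394500-55423183, Thbs1 at chr2:118111876-118127133 and Sparcl1 at chr5:104079111-104113733.

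Promoter windows of RefSeq (GRCm38.p6, 250 bases before to 50 after the start) covered 6 of the 10 genes. The windows of Adamts1 and Adamts9 are shown because, of the members with enough counts to be fitted in BECs, these were higher in both EC-Foxc-DKO mice, and that of Sparc because it was lower in both and holds the letters of a forkhead core. All 3 are read on the minus strand, 5′ to 3′, and capitals mark motif letters.
Adamts1, chr16:85803064-85803363: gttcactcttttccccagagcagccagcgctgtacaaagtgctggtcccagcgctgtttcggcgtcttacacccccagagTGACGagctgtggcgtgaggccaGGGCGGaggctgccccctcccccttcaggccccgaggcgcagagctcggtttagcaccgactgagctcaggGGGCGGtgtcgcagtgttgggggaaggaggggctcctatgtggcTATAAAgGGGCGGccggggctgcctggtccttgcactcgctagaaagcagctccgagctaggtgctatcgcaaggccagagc
Adamts9, chr6:92943485-92943784: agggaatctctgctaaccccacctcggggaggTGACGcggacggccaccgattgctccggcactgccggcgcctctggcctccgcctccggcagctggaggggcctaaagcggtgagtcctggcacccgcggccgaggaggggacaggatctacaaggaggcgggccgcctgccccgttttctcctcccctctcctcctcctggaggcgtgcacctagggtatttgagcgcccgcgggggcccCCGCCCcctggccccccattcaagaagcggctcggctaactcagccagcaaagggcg
Sparc, chr11:55420031-55420330: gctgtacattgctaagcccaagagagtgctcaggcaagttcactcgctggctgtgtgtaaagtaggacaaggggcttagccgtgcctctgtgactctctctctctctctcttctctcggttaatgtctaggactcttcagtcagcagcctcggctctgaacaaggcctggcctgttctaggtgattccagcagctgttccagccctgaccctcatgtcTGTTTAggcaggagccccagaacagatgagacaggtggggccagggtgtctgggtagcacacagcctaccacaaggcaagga

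On either strand, TGACG, the core of the cyclic AMP response element, occurred in the windows of Adamts1, Adamts9 and Timp1 and in 20.8% of all 32851 windows. The TATA box letters TATAAA stood 32 bases before the start of Adamts1, and 13.6% of all windows held them. The GC box GGGCGG occurred in 5 of the 6 windows, all but that of Sparc, and in 35.7% of all. The forkhead core TGTTTA occurred in the windows of Timp3 and Sparc and in 13.4% of all. The AP-1 letters TGANTCA, the whole cyclic AMP response element TGACGTCA (which contains TGACG) and the CArG box were in none of the 6, and in 7.81%, 1.79% and 1.63% of all windows. These are matches of letters in a short window and no evidence on any factor.

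The members lay in vessel, stromal, glial and myeloid cells and were near 0 in B cells, but each had its own set of cells. Levels are given as CPM, the UMIs of a gene for every 1000000 UMIs counted in that class of that mouse, and they are described without a test, since the classes were made from the same cells. A pair of values for a genotype is given in the order mouse 1, mouse 2. The 5 classes of endothelial, stromal, mural and glial cells held 94.7% to 100.0% of the kept UMIs of Adamts1, Adamts5, Adamts9, Timp3, Sparc and Sparcl1 and 79.8% of those of Adamts4. They held 57.0% of Timp2, 20.6% of Timp1 and 8.06% of Thbs1, whose UMIs lay for 85.5% in macrophages. Follicular B cells, which should lack these genes, served as the background: of 1378 such cells with a median of 3246.5 UMIs, between 0 and 12 (0.871%, for Sparc) had a UMI of a member. None had one of the 4 proteases, which allows a share of up to 0.218% of these cells with a UMI at this depth. This bound is for the pooled cells, of which 1204 came from EC-Foxc-DKO mouse 1. In EC-Foxc-DKO mouse 2, with 34 such cells, the bound is 8.82%.

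**Figure D1:**
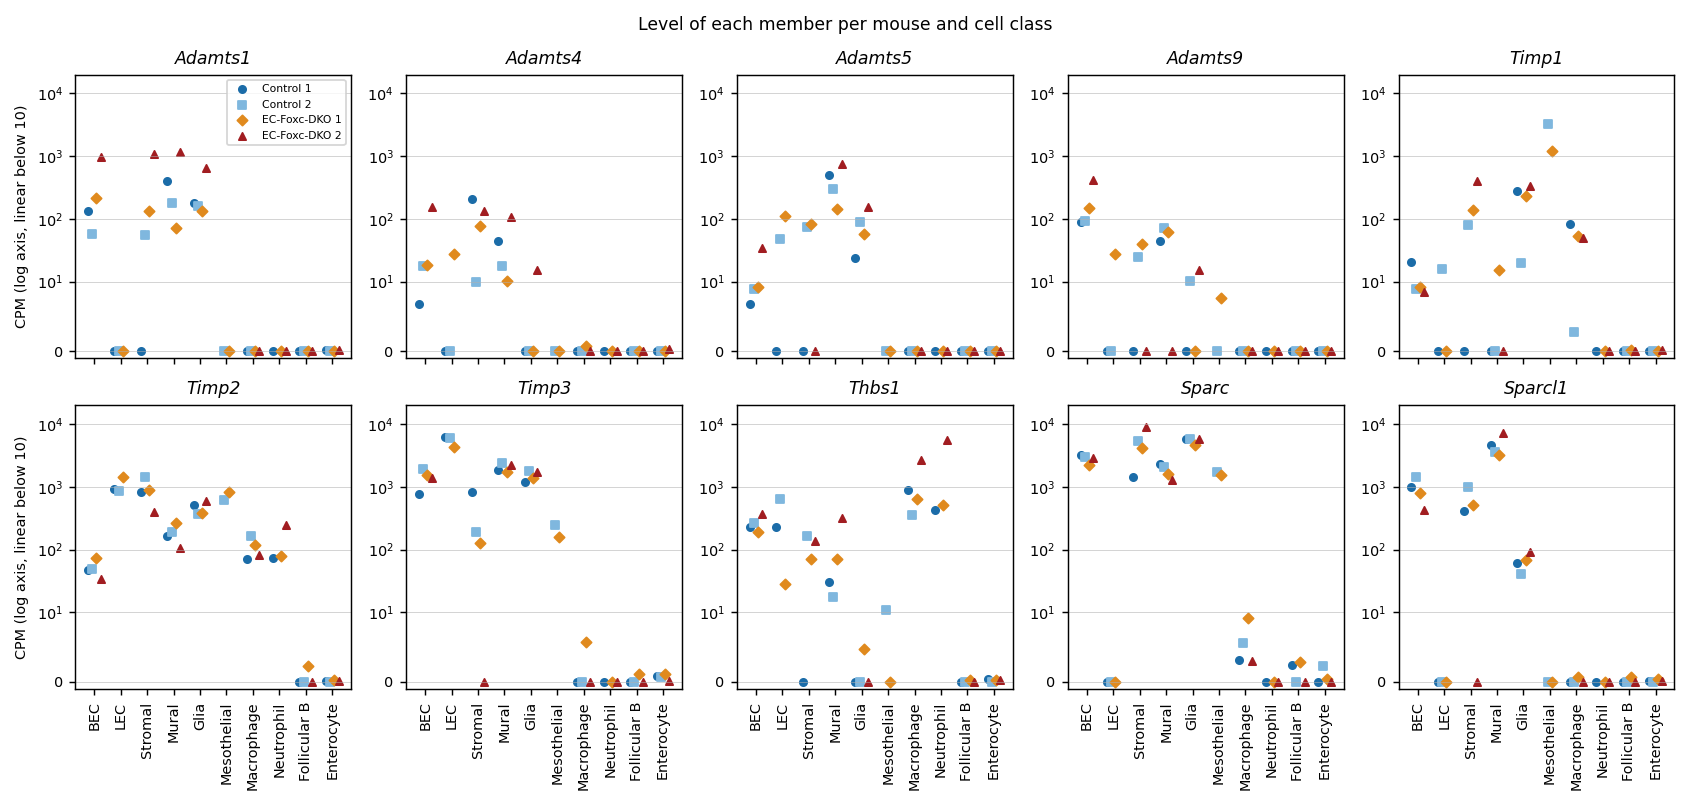
Each panel plots 1 gene, with cell classes on the x axis and CPM on a log y axis that is linear below 10; each point is 1 mouse. Timp3 was highest in LECs, Sparcl1 in mural cells and Adamts9 in BECs. Thbs1 was highest in macrophages or neutrophils except in Control mouse 2, where LECs were highest. The epithelial and B cell points lie near 0.

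Adamts1, a secreted protease that cuts versican and aggrecan, was found in BECs, glia, mural and stromal cells and not in LECs. In BECs it stood at 134 and 58.0 CPM in Control mice 1 and 2 and at 214 and 977 CPM in EC-Foxc-DKO mice 1 and 2. Both EC-Foxc-DKO mice lay above both Control mice, and EC-Foxc-DKO mouse 2 lay far above the other 3. These values rest on 20, 13, 92 and 115 UMIs, and the log2 fold change was 2.59 ± 0.71 (SE). Without EC-Foxc-DKO mouse 2 it was 1.22, and without EC-Foxc-DKO mouse 1 it was 3.33.

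The same mouse was also the highest for Adamts1 outside the endothelium. In glia the levels were 180.5 and 160.4 CPM in Control against 134 and 644 CPM in EC-Foxc-DKO mice, so that EC-Foxc-DKO mouse 1 was the lowest of the 4 and mouse 2 the highest. In mural cells they were 404 and 176 against 71.7 and 1161 CPM, the last from 11 UMIs in 2 cells. In stromal cells they were 0 (2 cells) and 54.8 against 135 and 1075 CPM, the last from 8 UMIs in 1 cell. Set against the glia of the same mouse, the BEC level of Adamts1 was 0.745 and 0.361 times as high in the Control mice and 1.59 and 1.52 times as high in the EC-Foxc-DKO mice. Set against the mural cells, it was 0.333 and 0.329 times in the Control mice and 2.98 and 0.842 times in the EC-Foxc-DKO mice. On both yardsticks the EC-Foxc-DKO mice stood above the Control mice in these cells. These ratios contain the BEC values treated as used in the choice of members, so nothing is read from their order. The mural values of EC-Foxc-DKO mice 1 and 2 rest on 14 and 11 UMIs. In the separate cells of 10 to 20% mitochondrial UMIs only EC-Foxc-DKO mouse 2 had less Adamts1 in BECs (527 CPM) than in glia (1651 CPM). Both Control mice had more in BECs (138 and 130 CPM) than in glia (0 and 40.7 CPM), as did EC-Foxc-DKO mouse 1. The order of the main cells was thus not seen again. In LECs no Adamts1 UMI was seen in 18 cells with 120555 UMIs, and 3 counts over the class would be 24.9 CPM. The mean BEC level of the 3 mice that had LECs, 135 CPM, was at least 5.44-fold higher than that, and the lowest BEC level, 58.0 CPM, at least 2.33-fold.

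Adamts9, a protease kept near the cell surface that acts on versican, was the member with the largest share in BECs, which held 78.6% of its kept UMIs. BECs had 87.4 and 93.6 CPM in Control against 149 and 416 CPM in EC-Foxc-DKO mice, with no overlap and a log2 fold change of 1.51 ± 0.51 (SE). It was 0.72 without EC-Foxc-DKO mouse 2 and 2.13 without EC-Foxc-DKO mouse 1. Mural cells had 0 to 70.5 CPM, below every BEC value, while all 15 BEC markers were also seen in mural cells, at a summed level of 5104 to 10024 CPM against 32097 to 36804 CPM in BECs. Glia had 0 to 15.3 CPM, and no more than 1 UMI in any mouse.

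Adamts4, an aggrecanase, was scarce, with 84 kept UMIs in all. In BECs it had 6.72 and 17.8 CPM in Control against 18.6 and 153 CPM in EC-Foxc-DKO mice, where only the 18 UMIs of EC-Foxc-DKO mouse 2 stood clear of the others. Stromal cells had 204 (1 UMI) and 9.96 CPM in Control against 77.4 and 134 (1 UMI) CPM in EC-Foxc-DKO mice, which overlap, and 23 of these 27 stromal UMIs came from EC-Foxc-DKO mouse 1.

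Adamts5, the other main aggrecanase, was a mural gene in these cells. Mural cells held 48.6% of its kept UMIs, at 508 and 299.5 CPM in Control against 143 and 739 (7 UMIs) CPM in EC-Foxc-DKO mice. The EC-Foxc-DKO mice lay below and above both Control mice. Glia had 24.1 to 153 CPM, a range that overlaps that of mural cells, and BECs had 6.72 to 34.0 CPM. Stromal cells had 74.7 CPM in Control mouse 2 and 84.1 CPM in EC-Foxc-DKO mouse 1. They had 0 in the mice with 2 cells and 1 cell. LECs had 0 to 111 CPM, with at most 4 UMIs in a mouse. In EC-Foxc-DKO mouse 1 stromal cells and LECs lay above glia (57.4 CPM). No Adamts5 UMI was seen in 1378 follicular B cells or 2374 epithelial cells.

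Barcodes with 10 to 20% mitochondrial UMIs, which the main analysis left out, gave a second and separate set of cells from the same mice. It held 111 BECs, 65 glia, 46 mural and 35 stromal cells. There Adamts1 in BECs was at 138 and 130 CPM in Control against 108 and 527 CPM in EC-Foxc-DKO mice. EC-Foxc-DKO mouse 1 was now the lowest of the 4, so the separation of the groups seen in the main cells was not seen again, while EC-Foxc-DKO mouse 2 was again the highest. Glia of that mouse had 1651 CPM (161 UMIs) against at most 40.7 CPM in the others. Adamts9 in BECs was at 23.0 and 55.7 CPM in Control against 51.2 and 479 CPM in EC-Foxc-DKO mice, so that EC-Foxc-DKO mouse 1 lay between the Control mice and mouse 2 was again the highest.

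Over pairs of an ADAMTS gene and 1 of the 4 classes BEC, stromal, mural and glia with at least 20 UMIs, EC-Foxc-DKO mouse 2 was highest in 8 of 10 pairs in the main cells and in 6 of 7 in the second set. For the TIMPs it was highest in 3 of 10 and 1 of 7, and for the matricellular genes in 5 of 11 and 4 of 10. Over all genes it was highest in 29.9% of 17257 such pairs in the main cells and in 30.8% of 9286 in the second set. The ADAMTS pairs include the BEC values of Adamts1, Adamts4 and Adamts9, from the contrast treated as used in the choice of members. In the main cells the stromal and mural values of EC-Foxc-DKO mouse 2 come from 1 and 2 cells. Nothing is therefore read from the ADAMTS counts. Early-response genes such as Fos and Egr1, which are known to rise soon after tissue handling, were also highest in the BECs of EC-Foxc-DKO mouse 2. The 15 listed genes summed to 2783 and 5849 CPM in the BECs of the Control mice and 4827 and 11444 CPM in those of the EC-Foxc-DKO mice. In glia the same sum was 13690 and 14644 against 12852 and 15223 CPM, a narrower range, and EC-Foxc-DKO mouse 2 was again the highest. Fos alone was at 2721 and 2696 against 706 and 7492 CPM in mural cells. For stromal cells it was at 204 and 179 against 582 and 0 CPM, so that EC-Foxc-DKO mouse 2 was the highest in the former and the lowest in the latter. The median mitochondrial share of BECs was 4.02% and 6.79% in Control against 4.96% and 7.16% in EC-Foxc-DKO mice. The part of either in the Adamts1 values was not tested.

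Among the inhibitors, Timp3 was the most widespread in vessels and was highest in LECs. LECs stood at 6332 and 6085 CPM in Control mice and at 4252 CPM in EC-Foxc-DKO mouse 1, all above the 1725 to 2396 CPM of mural cells. The second set of cells gave LEC values of 5844 CPM (Control mouse 2) and 4925 CPM (EC-Foxc-DKO mouse 1), again in that order. Mural cells, glia (1191 to 1774 CPM) and BECs (773 to 1948 CPM) overlapped one another. Stromal cells had 816 CPM in Control mouse 1 (4 UMIs), within the BEC range, and 189, 128 and 0 CPM in the other 3 mice, the last in 1 cell. In BECs the values were 773 and 1948 CPM in Control against 1530.0 and 1368 CPM in EC-Foxc-DKO mice, so that the Control mice lay at both ends, and the log2 fold change was 0.07 ± 0.38 (SE).

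Timp2, which also helps to activate MMP2 at the cell surface, set the 2 kinds of endothelium apart. LECs stood at 918 and 844 CPM in Control mice and at 1417 CPM in EC-Foxc-DKO mouse 1, whereas BECs had 47.1 and 49.0 against 74.3 and 34.0 CPM. Stromal cells (403 to 1435 CPM, the lowest from 3 UMIs) overlapped LECs, and glia had 371 to 598 CPM. Mural cells had 106 (1 UMI) to 266 CPM. Timp2 was also seen in leukocytes: macrophages had 71.6 to 167 CPM, neutrophils 72.6 to 242 CPM and dendritic cells 27.7 to 227 CPM. T cells were near the BEC level, with 40.7 to 51.5 CPM in CD8 T cells and 0 to 74.2 CPM in CD4 T cells.

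Timp1, the inducible member of the family, was nearly absent from endothelium and lay mostly in 9 mesothelial cells, the cells of the outer gut lining, which held 55.6% of its kept UMIs. They had 3210 CPM in Control mouse 2 (3 cells) and 1218 CPM in EC-Foxc-DKO mouse 1 (6 cells). Glia had 277 and 20.05 CPM in Control against 234 and 337 CPM in EC-Foxc-DKO mice, and stromal cells had 0 (2 cells) and 79.7 against 138 and 403 (3 UMIs) CPM. BECs had 8.50 to 20.2 CPM, with at most 4 UMIs in a mouse. Control mouse 2 was the lowest for Timp1 in glia, with 2 UMIs, and in macrophages, with 1 UMI in 42 cells (2.82 CPM) against 49.6 to 82.3 CPM in the other 3 mice.

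Thbs1, which encodes thrombospondin 1, was above all a gene of myeloid cells here. Macrophages had 881 and 353 CPM in Control against 643 and 2645 CPM in EC-Foxc-DKO mice, and neutrophils had 427 CPM in Control mouse 1 and 509 and 5503 CPM in the EC-Foxc-DKO mice. These neutrophil values come from 30, 20 and 6 cells, in that order. EC-Foxc-DKO mouse 2 was the highest in both classes. In macrophages EC-Foxc-DKO mouse 1 lay between the Control mice. In neutrophils both EC-Foxc-DKO mice lay above the 1 Control mouse that had any, but the counting intervals of that mouse and EC-Foxc-DKO mouse 1 overlapped. In Control mouse 2 LECs (637 CPM) lay above macrophages. Of the 2 macrophage clusters, the one led by Ccl7, Ccl12 and Arg1 carried the signal, with 926 and 365 against 748 and 2780.0 CPM, and the one with Hebp1, Aif1 and C1qa among its leading genes had 0 to 147 CPM. The first was the deeper, with a median depth of 9524 UMIs, and the second had 1001. In the second set of cells, macrophages had 497 and 15.02 CPM in Control against 404 and 2432 CPM in EC-Foxc-DKO mice, so that EC-Foxc-DKO mouse 2 was again the highest.

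In BECs Thbs1 stood at 229 and 263 CPM in Control against 190.4 and 374 CPM in EC-Foxc-DKO mice. The EC-Foxc-DKO mice lay on both sides of the Control mice, with a log2 fold change of 0.11 ± 0.39 (SE). Macrophage markers in these BECs summed to 5283 and 718 CPM in Control against 734 and 969 CPM in EC-Foxc-DKO mice, and their part in the Thbs1 values was not tested. Glia had 1 Thbs1 UMI in 92 cells.

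In LECs 1 of 3 tested members passed the threshold, in a fit whose EC-Foxc-DKO arm is a single mouse with 3 LECs. Thbs1 was at 229 and 637 CPM in the LECs of the Control mice and at 27.8 CPM in those of EC-Foxc-DKO mouse 1, from 5, 40 and 1 UMIs. It met the filter on low counts only through Control mouse 2, where it was highest, so nothing is read from its call. The log2 fold change was -4.06 ± 1.08 (SE), with an adjusted p of 0.016 in edgeR's quasi-likelihood test, and 18 of 803 genes tested in LECs passed (2.24%), 0.623% higher and 1.62% lower in EC-Foxc-DKO. The mice did not overlap for Timp2 (higher) and for Thbs1 and Timp3 (lower), where 43.5% and 28.5% of all genes tested did the same. The 95% counting interval of the lone EC-Foxc-DKO value runs from 0.704 to 155 CPM, and the p takes its spread from the Control mice alone. In the separate LECs of 10 to 20% mitochondrial UMIs the order was the other way, with 209 CPM in Control mouse 2 (4 UMIs) and 730 CPM in EC-Foxc-DKO mouse 1 (12 UMIs). With all cells up to 20% clustered together the log2 fold change was -0.83 with an adjusted p of 0.935, and with DESeq2's size factors the adjusted p was 0.340. Early-response genes summed to 872 and 526 CPM in the LECs of the Control mice and to 4391 CPM in those of EC-Foxc-DKO mouse 1, and their part in the result was not tested.

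**Figure D2:**
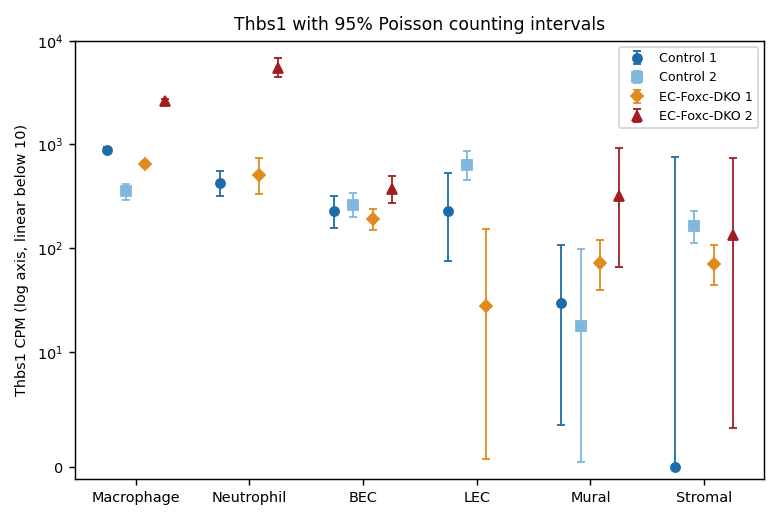
Thbs1 CPM on a log y axis (linear below 10) by cell class on the x axis, 1 point per mouse with its 95% Poisson counting interval. EC-Foxc-DKO mouse 2 is the highest in macrophages (2645 CPM) and neutrophils (5503 CPM, from 6 cells). The LEC point of EC-Foxc-DKO mouse 1 (27.8 CPM) has an interval that spans 0.704 to 155 CPM.

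Sparc, which encodes a collagen-binding matricellular protein, differed little between mice in glia and BECs. Glia had 5895 and 5874 CPM in Control against 4721 and 5718 CPM in EC-Foxc-DKO mice, and BECs had 3166 and 2942 against 2220 (EC-Foxc-DKO mouse 1) and 2880.2 CPM. The BEC level was 0.537, 0.501, 0.470 and 0.504 times that of the glia of the same mouse, in the order Control mice 1 and 2 and EC-Foxc-DKO mice 1 and 2. Mural cells had 2347 and 2044 against 1577 and 1266 (12 UMIs) CPM. In BECs, glia and mural cells both EC-Foxc-DKO mice lay below both Control mice. The log2 fold changes were -0.28 ± 0.22 in BECs, -0.22 ± 0.35 in glia and -0.70 ± 0.47 in mural cells (SE). In the second set of cells this order was gone, since BECs had 1704 and 2529 CPM in Control against 1939 and 3236 CPM in EC-Foxc-DKO mice.

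LECs had no Sparc UMI in 18 cells, and none was seen in the 9 LECs of the second set. The mean BEC level of 2802 CPM was thus at least 113-fold higher than the level of 3 counts over the LECs. Sparc, Sparcl1 and Adamts1 were thus seen in blood and not in lymphatic endothelium, whereas Timp2 and Timp3 were higher in LECs than in BECs in every mouse that had both.

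Sparcl1, a relative of Sparc made by vessels, was highest in mural cells, at 4724 and 3577 CPM in Control against 3205 and 7175 (2 cells) CPM in EC-Foxc-DKO mice. BECs had 1002 and 1409 CPM in Control against 808 and 425 CPM in EC-Foxc-DKO mice. Both EC-Foxc-DKO mice lay below both Control mice, and the log2 fold change was -0.95 ± 0.35 (SE), or -0.57 without EC-Foxc-DKO mouse 2 and -1.56 without EC-Foxc-DKO mouse 1. In the second set of cells the BEC values were 322 and 1299 CPM in Control against 785 and 336 CPM in EC-Foxc-DKO mice, which overlap. Stromal cells had 0 to 996 CPM and glia 40.1 to 92.0 CPM, and LECs again had no UMI, so that the mean BEC level of 911 CPM was at least 36.6-fold higher than the level of 3 counts over the LECs. Mural markers in BECs summed to 269 and 352 CPM in Control against 539 and 1028 CPM in EC-Foxc-DKO mice, so that the group lower in Sparcl1 was the higher in these markers; their part in the result was not tested.

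Tests of the genotype used UMI counts summed per mouse and class in edgeR, with p-values adjusted over all genes tested in the class. In BECs 6 of the 10 members passed the filter on low counts, and none of these passed the threshold, as did none of all 3487 genes (0%); 97 genes had an unadjusted p under 0.05, and DESeq2 called 2, neither of them a member. The groups of mice did not overlap for Adamts1 and Adamts9 (higher in EC-Foxc-DKO) and for Sparc and Sparcl1 (lower), where 15.5% of all genes tested did not overlap in the higher and 14.6% in the lower direction. Since this contrast is treated as used in the choice of members, nothing is read from these counts. Adamts4, Adamts5, Timp1 and Timp2 were too low in BECs to be tested.

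In stromal, mural and glial cells no member passed. In stromal cells 0 of 8 tested members passed, against 0.432% of 1852 genes (0.324% higher and 0.108% lower in EC-Foxc-DKO). An unadjusted p under 0.05 was found for 2 of the 8 members and for 79 of the 1852 genes, and DESeq2 called none of the 1852. The largest stromal values were 2.67 ± 1.21 for Adamts1 (adjusted p = 0.940) and 2.30 ± 0.78 for Adamts4 (adjusted p = 0.287), both as log2 fold change ± SE. Adamts1 met the filter on low counts only through the EC-Foxc-DKO mice, where it was higher. Adamts4 met it only through Control mouse 1 and EC-Foxc-DKO mouse 2, on 1 UMI each. In mural cells 0 of 6 members and 0% of 1099 genes passed, and in glia 0 of 5 members and 0% of 1644 genes, with no member at an unadjusted p under 0.05 and none called by DESeq2 in either. At an unadjusted p under 0.05 stood 61 mural and 38 glial genes, and DESeq2 called none of them. Adamts1 in mural cells had a log2 fold change of -0.07 ± 0.98. It turned to a fall of 2.01 on the log2 scale without the 2 cells of EC-Foxc-DKO mouse 2 and to 1.68 without EC-Foxc-DKO mouse 1. Each of these 2 fits holds a single EC-Foxc-DKO mouse. In the first, Adamts1 met the filter on low counts only through the Control mice, where it was higher, so nothing is read from that fall. In glia Adamts1 was 1.02 ± 0.68 (adjusted p = 1.000) and fell by 0.34 without EC-Foxc-DKO mouse 2. Timp1 in glia was 0.94 ± 0.77, and 3.67 without Control mouse 1. That last fit holds a single Control mouse, with 2 Timp1 UMIs in glia. Timp1 met the filter on low counts in it only through the EC-Foxc-DKO mice, where it was higher, so nothing is read from it.

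The groups did not overlap for Sparc in mural cells and in glia (lower in EC-Foxc-DKO), where 16.6% and 12.3% of all genes tested did the same. In stromal cells they did not overlap for Adamts1 and Timp1 (higher) and Timp3 (lower), against 18.3% and 13.3% of genes. Adamts1 and Timp1 met the filter on low counts there only through the EC-Foxc-DKO mice, where they were higher, so nothing is read from their order. Stromal and mural cells summed gave 0 of 8 members and 0% of 3009 genes, with no member at an unadjusted p under 0.05 and none called by DESeq2. Of 6 further classes that could be fitted, CD8 T cells and macrophages had 4 tested members, and none passed, none had an unadjusted p under 0.05 and DESeq2 called none. There 0% of genes passed in both (4809 and 7046 genes tested). The largest of these was Thbs1 in macrophages, with a log2 fold change of 1.39 ± 0.69 (SE, adjusted p = 1.000). In LECs the other 2 tested members, Timp2 and Timp3, had log2 fold changes of 0.52 ± 0.53 and -0.73 ± 0.65 (adjusted p = 0.869 for both).

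**Figure D3:**
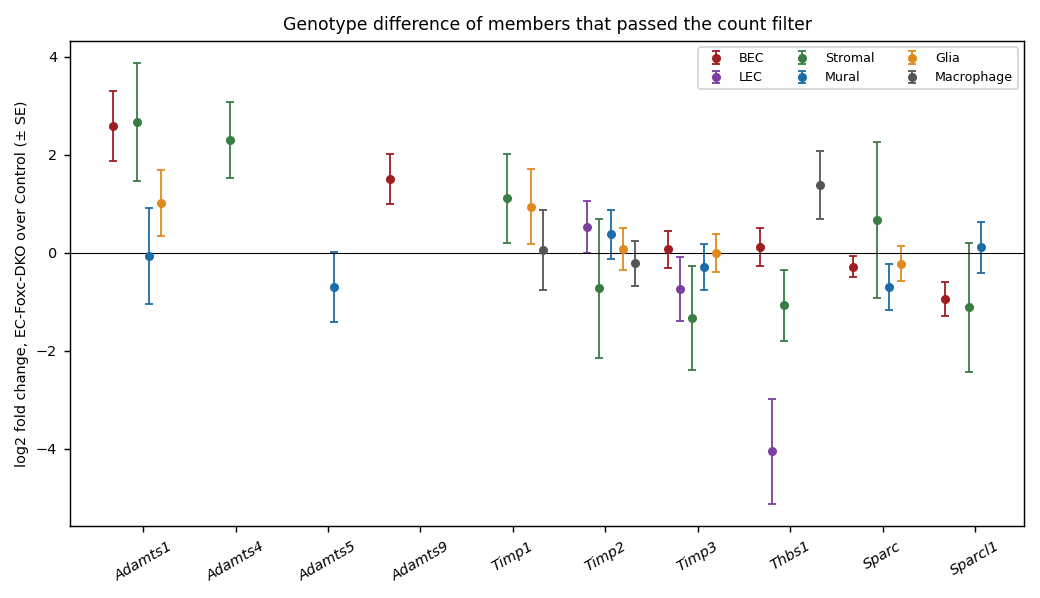
Log2 fold change of EC-Foxc-DKO over Control (y axis) with its SE for each member that passed the filter on low counts (x axis), coloured by cell class. The purple LEC point of Thbs1 at -4.06 is the only one past the threshold, and Adamts1 ranges from -0.07 in mural cells to 2.67 in stromal cells.

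By share of cells, the members fell into common and rare transcripts in BECs. A Sparc UMI was in 90.3% to 96.6% of the BECs of a mouse and a Timp3 UMI in 87.1% to 96.6%. Sparcl1 was in 74.2% and 96.6% of BECs of the Control mice and in 65.5% and 58.3% of those of the EC-Foxc-DKO mice. Adamts1 was in 6 of 31 (19.4%, exact 95% interval 7.45% to 37.5%) and 6 of 29 (20.7%) BECs of the Control mice and in 26 of 87 (29.9%) and 17 of 24 (70.8%, 48.9% to 87.4%) of the EC-Foxc-DKO mice. Intervals cover counting error only. Over all UMIs the Adamts1 interval of EC-Foxc-DKO mouse 1 (20.5% to 40.6%) overlapped that of Control mouse 1. Cells were also thinned to 1000 UMIs, with 0 to 7 shallower BECs per mouse left out. The Adamts1 shares were then 9.47% and 3.77% against 13.1% and 44.6%, and the Sparcl1 shares 54.8% and 71.6% against 48.1% and 29.8%. The BEC contrast is treated as used in the choice of members, so nothing is read from the order of these shares. Median depth of BECs was 3589 to 5118 UMIs, and no Adamts1 UMI was in any of 1378 follicular B cells at 3246.5 UMIs. Of these B cells 34 came from EC-Foxc-DKO mouse 2.

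**Figure D4:**
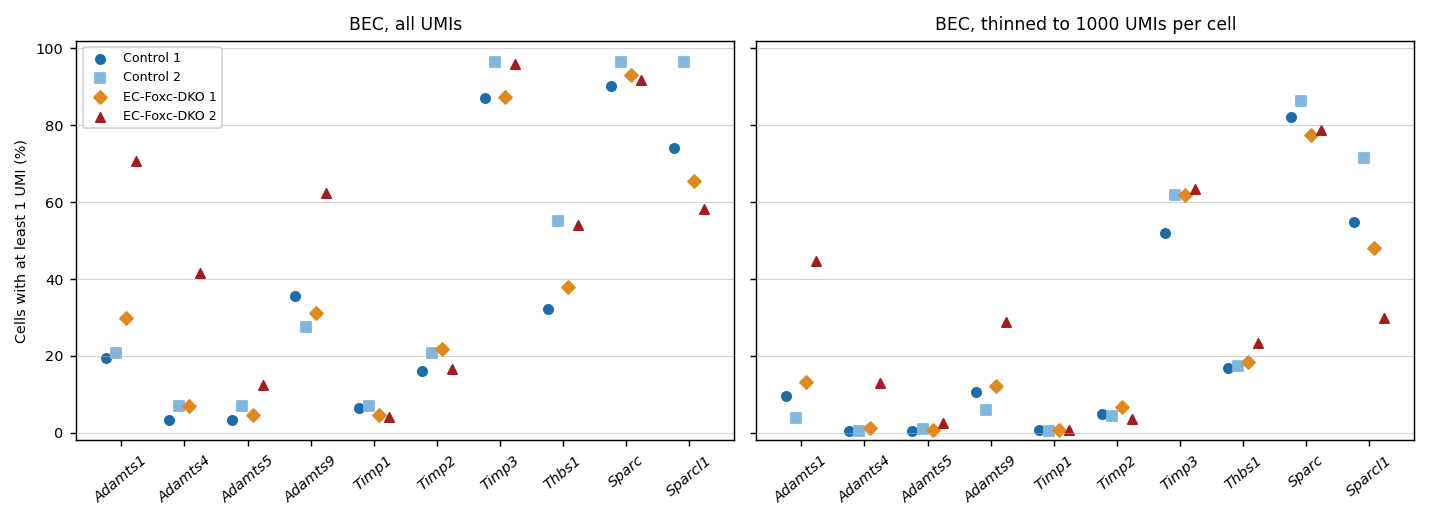
Percent of BECs with at least 1 UMI of each member (y axis), 1 point per mouse, over all UMIs on the left and thinned to 1000 UMIs per cell on the right. Sparc and Timp3 are near the top in every mouse, and for Adamts1, Adamts4 and Adamts9 EC-Foxc-DKO mouse 2 lies above the other 3.

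Genes whose levels ran most like each member over 17 classes with at least 20 cells were taken by Pearson's r of log2(CPM + 10), among 8838 other genes. These correlations describe 17 class means that share their libraries, and carry no test. LECs and mesothelial cells, with 18 and 9 cells, are not among the 17. Adamts1 was most like Rhoj (0.993), Wwtr1 (0.992) and Thsd7a (0.990), and Timp3 like Fermt2 (0.993), Wwtr1 (0.989) and Hoxb5 (0.987). Sparc was most like Wwtr1 (0.989) and the basement membrane genes Col4a1 (0.987) and Hspg2 (0.987). Adamts4 was most like Eln, which encodes elastin (0.998), Galnt15 (0.992) and Lrrc32 (0.986), all highest in stromal cells. Class means weigh each mouse alike, and the stromal values of Control mouse 1 and EC-Foxc-DKO mouse 2 come from 2 cells and 1 cell. Adamts5 was most like Wfdc1 (0.996), Arhgef25 (0.989) and Synm (0.988), and Sparcl1 like Nynrin (0.986), Fbxl7 (0.986) and Cavin3 (0.981), all highest in mural cells. Adamts9 was most like Cavin2 (0.987), Jcad (0.985) and Fat4 (0.985), all highest in BECs. Less close were the genes nearest to Timp1 (Mir99ahg, 0.965, Sh3pxd2b, 0.944, and Olfml3, 0.935), to Thbs1 (Hlx, 0.949, Hacd4, 0.926, and Tlr4, 0.903) and to Timp2 (Fndc3b, 0.889, Zcchc24, 0.883, and Zeb2, 0.881). Among the members themselves, Adamts1 was closest to Sparc (0.983) and Timp3 (0.977).

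The rest of the pathway was read from fixed lists, with levels as the mean CPM over mice. Each mouse counts alike in these means, also those with only 1 or 2 stromal or mural cells. Of 21 other ADAMTS and ADAMTS-like genes none was high enough in BECs or glia to be tested, and 0 of 4 in stromal and 0 of 1 in mural cells passed. Their leading genes were Adamtsl1 (221 CPM in mural cells and 158 in LECs), the procollagen protease Adamts2 (198 CPM in stromal cells) and Adamts10. The last was at 41.8 CPM in stromal cells, 39.1 in LECs, 37.3 in mural cells and 31.2 in BECs. Of 25 metalloproteinases that TIMPs hold, none of 4 tested in BECs, 4 in stromal cells, 3 in glia and 1 in LECs passed. Mmp2, a gelatinase, was a stromal gene (839 CPM, against 9.53 in BECs), and Mmp14, a membrane-bound metalloproteinase, was also highest in stromal cells (235 CPM). Adam10, a sheddase, was highest in LECs (323 CPM, against 148 in BECs). Of the 7 other inhibitors 3 had a UMI: Timp4 was at 127 CPM in BECs and 0 in stromal, mural and glial cells, Reck was at 55.0 CPM in glia, and Spock2 was at 60.5 CPM in stromal cells, with 0 of 1 tested passing in BECs and in stromal cells.

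Of the 10 proteoglycans that ADAMTS proteases cut or that sit beside them, stromal cells made the most, with Dcn at 22656 CPM, Lum at 2138 CPM and Bgn at 2025 CPM. None of 6 tested in stromal cells, 3 in glia, 2 in BECs and 2 in mural cells passed. Among 21 other thrombospondins and matricellular genes Fbln1 was stromal (1717 CPM), Postn was highest in glia (779 CPM) and Fbln5 in BECs (452 CPM), and none of 9 tested in stromal cells, 6 in glia, 4 in BECs, 3 in mural cells and 2 in LECs passed.

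The receptors of thrombospondin 1 included 1 gene that passed. Cd36, the scavenger receptor through which thrombospondin 1 acts on endothelium, was at 1949 CPM in BECs and 234 CPM in LECs, as means over mice. In LECs it was at 367 and 335 CPM in Control mice and at 0 in the 3 LECs of EC-Foxc-DKO mouse 1. Among 5 receptors tested there it was the gene that passed, in the fit with a single EC-Foxc-DKO mouse. It met the filter on low counts only through the Control mice, so nothing is read from its call. Cd47 was highest in LECs (714 CPM) and the integrin gene Itgb1 in mural cells (1338 CPM), and 0 of 6 receptors passed in BECs, 0 of 4 in mural cells, 0 of 4 in glia and 0 of 3 in stromal cells.

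Of the 15 early-response genes, all were tested in BECs and none passed, although their median log2 fold change was 0.86 against 0.00 over all genes. In LECs 2 of 5 passed, in the fit with a single EC-Foxc-DKO mouse of 3 LECs. Jun was at 91.8 and 47.8 CPM in Control mice and 1528 CPM in that mouse, and Fos was at 0 in both Control mice and 639 CPM in that mouse. Both met the filter on low counts only through that mouse, where they were higher, so nothing is read from these calls. The leading genes of that list were Fos, Jun and Egr1, at 4403, 2139 and 1598 CPM in glia and 1142, 635 and 639.6 CPM in BECs, and 0 of 14 passed in glia, 0 of 11 in mural cells and 0 of 6 in stromal cells.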

How the data were processed

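Counts of the 10 genes were taken from 1 library each of 2 Control and 2 EC-Foxc-DKO mice, grouped by the labels. The authors deposited raw UMI counts (integers, with no normalization) for each gene in each barcode, from 10x Genomics 3′ v3.1 libraries with Cell Ranger on mm10 with Cre added; the submitters' processing notes name version 4.0.0, and the paper names another. Timp2 overlaps Cep295nl on the same strand, and reads shared by both could not be assigned here.

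Barcodes with over 10% mitochondrial UMIs were removed, and the others were clustered with scanpy 1.11.5 (15 principal components, 15 neighbors, Leiden resolution 0.5) without the 10 members. A cluster was named from at least 3 detected markers. Names were rebuilt and may differ from the study's. Doublets were kept in the main analysis; Scrublet's own threshold marked 13 cells, so the 292 highest scores were removed as an alternative. Counts were summed per mouse and class and tested with edgeR 4.0.16 (quasi-likelihood, filterByExpr, TMM, Benjamini-Hochberg, threshold 0.05), with DESeq2 1.42.0 as an alternative. The SE is the fold change divided by the root of F. Cells of 1 mouse are not replicates. On simulated counts of 3487 BEC genes, 72.7% of genes changed by 2 on the log2 scale were recovered and 17.6% of those changed by 1. All genes were simulated with the common dispersion of BECs (0.0614), without a spread of their own. These rates therefore do not hold for members whose mice of a genotype lay far apart. Intervals are exact at 95% and cover counting error only, as does the floor of 3 counts. A joined table of all mice, whose column names show no sample, was used only for its list of genes. Genes named are all members, the 3 most alike in class pattern, and, of each list, those past the threshold and the 3 highest. The members and lists were chosen with earlier results of these data known.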

Additional observations from a re-analysis of the deposited data

Results flagged for a closer look

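The Sparcl1 values of the 2 genotypes lay in opposite order in BECs and glia of the same mice. Sparcl1 did not pass the threshold in BECs and was too low in glia to be tested. In BECs both EC-Foxc-DKO mice were below both Control mice, with a log2 ratio of mean CPM plus 10 of -0.96 (616 against 1205 CPM). In glia both were above both Control mice, with a ratio of 0.57 (79.5 against 50.1 CPM), from 5 and 4 UMIs in Control against 14 and 6 UMIs in EC-Foxc-DKO mice. The counting intervals of these glial values all overlapped. Of all genes tested, 14.6% in BECs did not overlap in the lower and 14.1% in glia in the higher direction. The difference between the classes was not tested. In the separate cells of 10 to 20% mitochondrial UMIs the BEC values overlapped, at 322 and 1299 CPM in Control against 785 and 336 CPM in EC-Foxc-DKO mice.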

How the results depend on the processing

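The number of genes past the threshold depended on the settings. Without the filter on low counts it was 57 in BECs (main 0), 0 in LECs (main 18), 0 in stromal cells (main 8), 2 in mural cells (main 0), 50 in glia (main 0), 5 in stromal and mural cells pooled (main 0) and 401 over the 6 other classes (main 28). DESeq2's Wald test called 2 in BECs, 1 in LECs and 0 in stromal cells, and edgeR with DESeq2's size factors gave 0 in LECs and 5 in stromal cells. A mitochondrial limit of 20% gave 6 in LECs, 3 in stromal cells and 8 over the other classes. Removing the highest doublet scores gave 32 in LECs, 0 in stromal cells and 5 over the other classes, and a resolution of 1.0 gave 0 in stromal cells. Keeping only mice with at least 5 cells gave 27 in mural cells and 5 in the pooled cells. Leaving out 1 mouse gave 12 to 32 in BECs, 0 to 3 in stromal cells, 0 to 27 in mural cells, 0 to 48 in glia, 0 to 46 in the pooled cells and 141 to 274 over the other classes. These fits take the spread of a lone mouse from the mice of the other genotype.

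Whether mice with the same replicate number shared a batch or handling was not tested. Their deviations correlated at -0.0129 in BECs and 0.0069 in glia, which does not settle it. The median mitochondrial share of BECs was 4.02% and 6.79% in Control against 4.96% and 7.16% in EC-Foxc-DKO mice. In glia it was 5.01% and 7.77% against 4.38% and 7.89%, so mouse 2 was the higher of each pair. In crypt cells the EC-Foxc-DKO mice had the other order (4.61% and 3.71%). With the number as a replicate block, 6 genes passed in BECs, 0 in stromal cells and 1 in mural cells, none of them a member, and no other count of calls moved by over 1.5 times; in LECs the block left no residual degrees of freedom. Of members, 1 passed in BECs without the filter (Adamts1). That contrast is treated as used in the choice of members, so nothing is read from this call. Fits with 1 mouse left out, and mural cells of mice with at least 5 cells, leave a lone mouse in 1 genotype. Calls of members in those fits are therefore not counted here. Thbs1 in LECs, the 1 member called there, was called in 0 cases under the 20% limit, DESeq2's size factors, DESeq2's test and no filter, and stayed called with doublets removed. Adamts1 in mural cells turned to 0.090 under the 20% limit and 0.59 with DESeq2 (main -0.07), and ranged from -2.01 to 1.68 when 1 mouse was left out; in glia it ranged from -0.34 to 1.80. Among the 5 endothelial, stromal, mural and glial classes, that of the highest level stayed the same for 8 to 10 of the 10 members. Leaving out cells with a barcode seen in 2 libraries, an alternative chosen after the data were seen, as was the look at cells of 10 to 20% mitochondrial UMIs, changed no count of calls. The cause of these changes was not tested, and few cells per mouse limit LECs, stromal and mural cells most. LECs without EC-Foxc-DKO mouse 1 or with at least 5 cells per mouse, and stromal cells with at least 5 cells, left too few mice for a test.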

Other observations

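Many members' UMIs lay in barcodes that the mitochondrial limit removed. Of the UMIs in all barcodes, 477 of 968 were kept for Adamts1, 187 of 344 for Adamts9, 824 of 1003 for Timp1, 4233 of 6584 for Thbs1 and 2486 of 4840 for Sparcl1. In macrophages of the cells between 10 and 20%, Timp1 had 35 UMIs in EC-Foxc-DKO mouse 2 (84.3 CPM) and 0 in the other 3 mice. Epithelial cells, at a median of 25784.5 UMIs, had a Timp3 UMI in 60 of 2374 cells (2.53%) and a Thbs1 UMI in 58 (2.44%), at 1.19 and 1.43 CPM.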
